A study of Mus musculus with 24 samples.

Results

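The Phase II conjugation enzymes were followed across 4 tissues of Rap1 knockin and wild-type (WT) male mice. The set was chosen by gene name: every gene of the glutathione transferase (Gst), UDP-glucuronosyltransferase (Ugt1 and Ugt2) and sulfotransferase (Sult1 to Sult5) families with a named probe on the array. It holds 51 of the 21368 named genes, namely 21 Gst, 12 Ugt and 18 Sult genes, and 70 probes in all. The probe with the highest mean over all arrays stands for a gene.

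RNA came from the livers, brains, hearts and skeletal muscles of 6 male mice, and each tissue of each mouse was hybridised to 1 one-color Agilent array, 24 arrays in all. WT mice (WT1, WT2, WT3) and homozygous knockin mice (KI1, KI2, KI3, Rap1 KI/KI) were compared. The knockin allele was made by CRISPR/Cas9 editing and exchanges an isoleucine of RAP1, encoded by Terf2ip, for arginine, which removes the contact of RAP1 with the telomere protein TRF2. The allele is carried in every cell, and the line was backcrossed to C57BL/6N. The age was 5 months for WT1 and KI1, and the remaining 4 were 2 months of age. Because the allele is a point mutation, the Terf2ip level does not check the labels. Its KI/KI minus WT difference lay between -0.40 ± 0.22 (SE) in the heart and 0.09 ± 0.26 in the liver on the log2 scale.

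Conjugating enzymes attach a water-soluble group to drugs, hormones, bile pigments and reactive by-products, which can then leave the cell in bile or urine. Glutathione transferases add glutathione to electrophiles, UDP-glucuronosyltransferases of the endoplasmic reticulum add glucuronic acid, and cytosolic sulfotransferases add sulfate taken from the donor PAPS. The liver is the organ best known for all 3 reactions. Several of these genes are known targets of the stress sensor NRF2, which binds antioxidant response elements.

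The Ugt2 genes lie together, and their promoters are shown because the 7 Ugt2b genes were bright in the liver and near or below background in the other tissues. In the order of the RefSeq annotation, chromosome 5 carries Ugt2b34, Ugt2b1, Ugt2b35, Ugt2b36, Ugt2b5, Ugt2b37, Ugt2a3, Ugt2b38, Ugt2a1, Ugt2a2, Sult1b1, Sult1d1 and Sult1e1 in 1 run of 13 genes, of which 12 had a named probe. The sequences are RefSeq's, from build GRCm38.p6, and run from 250 bases before to 50 bases after the annotated transcript start, 5′ to 3′ on the strand of the gene. Capitals mark GTTATA and TTAAC with any 2 bases between them. This pattern of 13 letters, in which the 2 middle bases differ between windows, stands in all 6 windows. It was read from them after they were seen.

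Ugt2b1 (chr5:86926454-86926753, minus strand): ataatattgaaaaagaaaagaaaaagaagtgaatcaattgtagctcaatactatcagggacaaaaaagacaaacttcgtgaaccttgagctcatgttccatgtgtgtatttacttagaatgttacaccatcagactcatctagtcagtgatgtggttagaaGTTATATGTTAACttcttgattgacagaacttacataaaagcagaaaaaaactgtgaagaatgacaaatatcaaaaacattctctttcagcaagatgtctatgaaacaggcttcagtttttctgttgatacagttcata
Ugt2b35 (chr5:87000610-87000909, plus strand): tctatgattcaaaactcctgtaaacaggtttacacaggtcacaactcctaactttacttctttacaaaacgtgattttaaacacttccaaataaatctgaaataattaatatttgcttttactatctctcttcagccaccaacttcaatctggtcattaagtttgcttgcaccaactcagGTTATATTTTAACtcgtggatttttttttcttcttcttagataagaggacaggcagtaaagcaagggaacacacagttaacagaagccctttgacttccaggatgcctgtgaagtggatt
Ugt2b36 (chr5:87092506-87092805, minus strand): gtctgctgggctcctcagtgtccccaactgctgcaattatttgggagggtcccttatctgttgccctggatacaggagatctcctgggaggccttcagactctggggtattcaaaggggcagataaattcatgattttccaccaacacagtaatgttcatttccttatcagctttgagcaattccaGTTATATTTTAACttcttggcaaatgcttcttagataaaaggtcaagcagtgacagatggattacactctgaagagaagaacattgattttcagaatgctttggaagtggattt
Ugt2b5 (chr5:87140291-87140590, minus strand): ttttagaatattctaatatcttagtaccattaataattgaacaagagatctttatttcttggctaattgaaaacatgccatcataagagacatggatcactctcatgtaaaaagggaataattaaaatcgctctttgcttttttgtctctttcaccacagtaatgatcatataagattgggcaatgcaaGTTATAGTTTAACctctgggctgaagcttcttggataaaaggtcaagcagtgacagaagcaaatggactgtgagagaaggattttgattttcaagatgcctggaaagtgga
Ugt2b37 (chr5:87254739-87255038, minus strand): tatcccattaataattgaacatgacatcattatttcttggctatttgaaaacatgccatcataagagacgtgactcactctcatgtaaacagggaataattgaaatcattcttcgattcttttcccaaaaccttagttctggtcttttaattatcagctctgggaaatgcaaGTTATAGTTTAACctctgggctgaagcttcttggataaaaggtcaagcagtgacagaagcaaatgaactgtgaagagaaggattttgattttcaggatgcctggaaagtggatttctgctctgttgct
Ugt2b38 (chr5:87424154-87424453, minus strand): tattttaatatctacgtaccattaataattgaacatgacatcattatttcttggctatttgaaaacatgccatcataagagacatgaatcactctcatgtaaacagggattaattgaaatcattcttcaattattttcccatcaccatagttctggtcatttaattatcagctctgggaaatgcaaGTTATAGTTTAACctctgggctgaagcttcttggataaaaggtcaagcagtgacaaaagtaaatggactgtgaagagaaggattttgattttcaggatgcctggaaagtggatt

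These letters, searched on both strands, stood in 7 of 32851 promoter windows of the table (0.0213%). Of the 7, 6 belong to Ugt2b genes shown above, and the other to Pklr, a pyruvate kinase gene that is no transferase.

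The marked bases end between 49 and 77 bases before the start. The windows of Ugt2b37 and Ugt2b38 are near copies, with 271 of 286 aligned bases identical (94.8%). The other pairs among the 6 share 32.6% to 55.8% of aligned bases without gaps. An ungapped count misses copies that are shifted by inserted or lost bases. The Ugt2b5 window repeats long stretches of the Ugt2b37 and Ugt2b38 windows on both sides of the marked bases. How far the 6 windows are copies of each other was not tested. Ugt2b34, Ugt2a1 and Ugt2a3 lack these letters in their windows, although all 3 genes were also highest in the liver. In all, 55 windows matched 44 of the 51 genes. The match is a description of the sequence and not a test of binding.

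For contrast, the promoter of Gsta3, a transferase known for NRF2 control, is given with its antioxidant response element (TGAC and GC with any 3 bases between, both strands) in capitals.

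Gsta3 (chr1:21240335-21240634, plus strand): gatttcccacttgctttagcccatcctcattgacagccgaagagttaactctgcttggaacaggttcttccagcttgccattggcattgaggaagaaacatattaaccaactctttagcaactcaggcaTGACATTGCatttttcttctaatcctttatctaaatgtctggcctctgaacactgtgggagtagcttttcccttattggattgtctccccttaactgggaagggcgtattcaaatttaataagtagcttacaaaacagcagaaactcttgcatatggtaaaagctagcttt

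Of the 55 windows of the set, 3 held such an element (5.45%), against 12.4% of all windows. The core of the xenobiotic response element, GCGTG on either strand, was in 18.2% of them against 32.4% of all windows.

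Levels are given as log2 of the processed signal minus log2 of the 75th percentile of that array, so 0 is the brightness of that percentile. A level is compared between arrays and never between genes, since probes differ in brightness. The tissue labels were checked with 10 hepatocyte, 8 neuron, 7 cardiomyocyte and 7 skeletal fibre markers. All were well above background on every array of their own tissue. Detection alone does not separate tissues, since all 10 hepatocyte markers also passed in the heart of WT2. The level summed over a list, in multiples of the 75th percentile, did separate them. It was 2307 to 4401 for hepatocyte markers in livers and at most 95.6 elsewhere. For neuron markers it was 250 to 397 in brains and at most 50.4 elsewhere. Cardiomyocyte markers gave 1587 to 2812 in hearts and at most 52.4 elsewhere, and fibre markers 2877 to 3736 in muscles and at most 160 elsewhere. Between 56.5% and 72.7% of probes were well above background per array. The heart of WT1 stood apart in several markers. Myl7, a myosin light chain of the atria, was at -2.68 there and between 4.78 and 8.11 in the other 5 hearts. Nppa, also a cardiomyocyte marker, was at 6.7 against 8.5 to 9.5. Adipoq, the adiponectin gene of adipocytes, was at -4.50 against -0.39 to 4.64. The adipocyte markers Plin1 (-5.2 against -1.7 to 3.0), Cidec (-4.01 against 0.75 to 5.17) and Cfd (-0.39 against 4.29 to 7.93) were low too. Lpl and Fabp4 of that list were not. Heart differences between genotypes or ages are also given without the heart of WT1 for the genes named. The arrays lay on 3 slides of 8, with all livers on 1 slide together with the brains of WT1 and KI1, and liver and brain RNA was extracted with another kit than heart and muscle RNA. The other brains shared a slide with the hearts of WT1, KI1, WT2 and KI2, and the hearts of WT3 and KI3 lay with all muscles. No liver shared a slide with a heart or a muscle, and no brain with a muscle. Slide and tissue cannot be told apart in those comparisons. Every call of highest in the liver includes liver against heart and against muscle. Kit and tissue cannot be told apart where they differ together. In these whole-tissue samples, fewer cells of a type and less RNA per cell cannot be told apart.

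The 3 families differed in how widely they were detected. Of the 51 genes, 43 were well above background on at least 3 arrays and were tested, comprising all 21 Gst, all 12 Ugt and 10 of 18 Sult genes. On all 24 arrays, 19 Gst genes but only 1 Ugt and 4 Sult genes were above background. By tissue, 42 genes reached 3 arrays in livers, 28 in brains, 32 in hearts and 28 in muscles. All 12 Ugt genes were above background on all 6 liver arrays, whereas 1 of them was on all 6 brain arrays, 2 on all 6 heart arrays and 1 on all 6 muscle arrays. Sult1c1, Sult2a1, Sult2a4, Sult2a6 and Sult3a2 were not well above background on any array. Sult2a2 passed on 2 livers, Sult2a3 on the brain of KI3 and Sult3a1 on the liver of KI3, and these 8 genes were not tested.

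The liver held the highest level of most of these enzymes. A gene was called highest in a tissue if it exceeded each of the other 3 tissues at a limma adjusted p under 0.05 over 6 arrays a tissue. By that rule 35 of the 51 genes were highest in the liver, with 16 of 21 Gst, 12 of 12 Ugt and 7 of 18 Sult genes. Among all 18638 named genes tested, 25.2% were highest in the liver. A gene that passed the background filter through the liver alone had to be higher there. Its adjusted p compares signal with background and is no separate support. Among genes given a p-value below, these are Gstp3, Ugt2b1, Ugt2b35, Sult1d1, Sult1b1, Sult2a7, Glyat and Baat. The same holds for Slc7a11 and the brain. The genes above background on all 24 arrays were therefore also counted. Of those 24, 19 were highest in the liver (79.2%), against 27.1% of all genes that met the same condition.

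Elsewhere the counts were small. Sult4a1 and Sult2b1 were highest in the brain (20% of all genes), Gsto2 in the heart (8.14% of all genes) and Gstm5 in the muscle (10.3% of all genes). Gstm2, Gsta4, Sult1e1 and Gstt4 were tested and highest in no tissue. Over the 24 genes above background on all arrays, the median liver difference was 4.76 to the brain, 2.95 to the heart and 3.29 to the muscle on the log2 scale. The same median over the 12701 genes that met this condition was 0.49, 0.06 and 0.01.

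**Figure D1:**
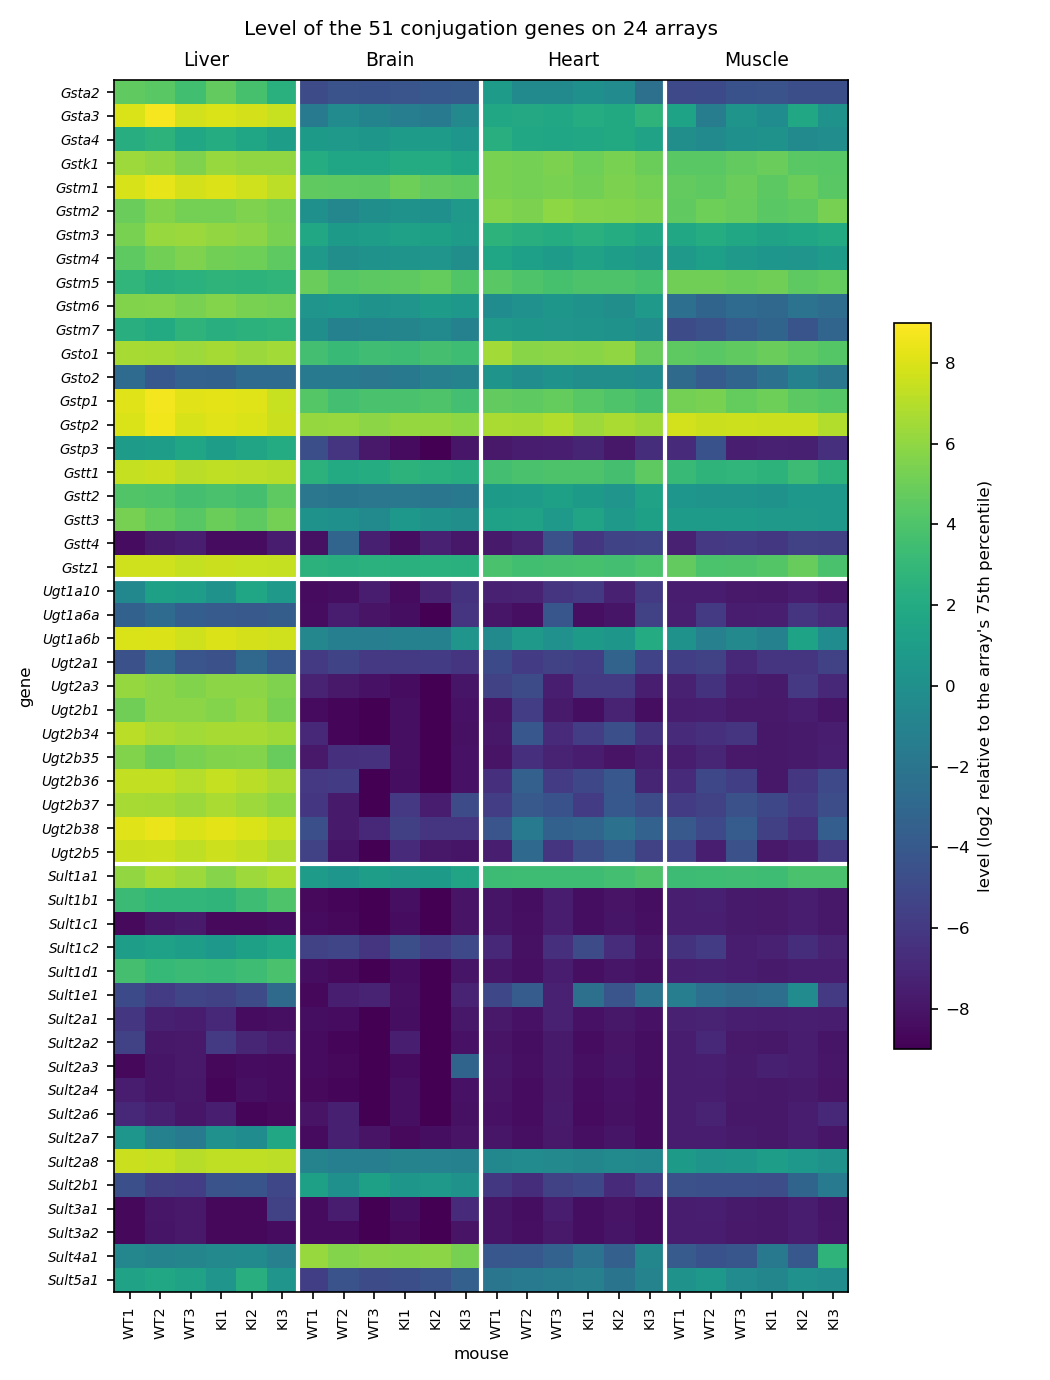
Heat map of log2 levels relative to the 75th percentile of each array for the 51 genes (rows, by family) on the 24 arrays (columns, by tissue, genotype and mouse). Most of the 12 Ugt rows are bright in the 6 liver columns and dim elsewhere, most Gst rows are above background everywhere, and Sult4a1 and Sult2b1 stand out in the brain columns.

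Among the glutathione transferases, which are named by class, Gstp3 of the pi class was above background in every liver and in few arrays elsewhere. Its liver level was lowest at 0.96, median 1.28 and highest 2.09. In brains and muscles 1 of 6 arrays each was above background, and with the dim arrays raised to the floor of their array the liver was at least 184-fold and 104-fold higher (adjusted p = 2.3e-12 and 1.12e-11, limma, on the levels as measured). No heart was above background for Gstp3, and the liver was at least 157-fold higher (adjusted p = 3.24e-12). All 6 livers therefore lay above every array of the other tissues.

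Gsta3, an alpha-class enzyme that clears lipid peroxidation products and aflatoxin epoxide, was above background on every array. In the liver it ranged from 7.52 through a median of 7.90 to 8.78. Hearts averaged 2.00 ± 0.38 (SD, n = 6), muscles 0.35 ± 1.13 and brains -1.06 ± 0.59. The liver exceeded the heart 63.0-fold, the muscle 199-fold and the brain 526-fold (limma adjusted p = 1.09e-10, 2.1e-12 and 1.19e-13). The muscle values spread the most, from -1.38 in WT2 to 1.71 in KI2.

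Gstm6, a mu-class enzyme, averaged 5.47 ± 0.18 (SD, n = 6) in livers, 0.50 ± 0.26 in brains, 0.20 ± 0.36 in hearts and -2.67 ± 0.38 in muscles. The smallest gap was 4.97 ± 0.19 (SE) to the brain (31.3-fold, adjusted p = 1.21e-14) and the largest 283-fold to the muscle (7.48e-18). These 3 genes were named for the size of the measured gap, which for Gstp3 depends on signals below background. In the other liver-highest Gst genes the smallest gap ran down to 0.52 for Gstp2, whose other probe gave 3.08, to 0.67 for Gsto1, which reduces dehydroascorbate and arsenic compounds, and to 0.78 for the mitochondrial and peroxisomal Gstk1. The theta class, Gstt, had smallest gaps between 3.08 and 3.71 where it was highest in the liver.

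The glucuronosyltransferases were above background mainly on the liver arrays. Since most arrays outside the liver were below background for most of them, the smallest gap is given with dim arrays raised to the floor, as a lower limit. It was 10.80 to 12.16 in the 7 Ugt2b genes, 1.92 to 7.26 in the 3 Ugt1a genes, 11.28 for Ugt2a3 and 1.30 for Ugt2a1. Ugt2b1, whose family members conjugate steroids and bile acids, lay between 5.07 and 6.09 in the liver with a median of 5.74. Its mean was -8.65 ± 0.44 (SD, n = 6) in the brain and -7.69 ± 0.18 in the muscle, with no array above background there. The liver was at least 4320.0-fold higher than the brain and at least 2186-fold higher than the muscle (limma adjusted p = 8.16e-18 and 1.5e-17). In the heart 1 of 6 arrays was above background, and with the others raised to the floor the liver was at least 2859.7-fold higher (adjusted p = 2.58e-17).

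Ugt2b35 lay between 4.80 and 5.63 in the liver with a median of 5.51. It was at least 2434-fold above the heart (adjusted p = 3.92e-18) and at least 1778-fold above the muscle (2.59e-18), with no array above background in either, and at least 3345-fold above the brain, where 1 of 6 arrays passed (3.47e-18). Ugt2b34 lay between 6.40 and 7.16 in the liver with a median of 6.65. It was at least 8909-fold above the brain and at least 4509-fold above the muscle, and at least 4047-fold above the heart, where 3 of 6 arrays passed (limma adjusted p = 1.06e-15, 4.01e-15 and 2.18e-14). For each of these 3 Ugt2b genes the 6 livers were far from all arrays of the other tissues, and Ugt2b34 lacks the marked promoter letters that Ugt2b1 and Ugt2b35 carry.

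Ugt1a genes need a further caution. Of the 9 Ugt1a genes in the RefSeq table, 7 end at the same base, since separate first exons join shared last exons, and a probe in the shared part cannot tell them apart. Ugt1a1, Ugt1a2, Ugt1a5, Ugt1a7c, Ugt1a8 and Ugt1a9, with Ugt2a2, have no probe named for them here. Near-identical copies in the Gstm, Gstp, Ugt2b and Sult2a groups can likewise share signal.

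Sulfotransferases split between tissues. Sult1d1, which sulfates catecholamines and other amines, lay between 3.03 and 3.84 in the liver with a median of 3.33 and was above background on no other array. The liver was at least 918-fold above the brain, 636-fold above the heart and 465-fold above the muscle (limma adjusted p = 1.33e-19, 1.63e-19 and 1.73e-19, each against signals below background). Sult1b1, known for sulfating thyroid hormone, lay between 2.76 and 4.03 with a median of 3.09, and the bounds were at least 806-fold, 559-fold and 408-fold (3.36e-19, 5.68e-19 and 6.82e-19). Both genes are neighbours on chromosome 5 beyond the Ugt2 genes.

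Sult2a7, of a group that sulfates bile acids and steroids, varied more between livers, from -1.50 through a median of -0.10 to 1.76, and was above background on no other array. Its bounds were at least 81.2-fold to the brain, 56.3-fold to the heart and 41.1-fold to the muscle (limma adjusted p = 2.69e-14, 4.42e-14 and 7.57e-14). Sult2a8 lay at 7.29 ± 0.16 (SD, n = 6) in the liver and was measured in all tissues.

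Sult4a1, a sulfotransferase of neurons with little known enzyme activity, had its highest level in the brain, between 5.28 and 6.26 with a median of 5.84. It was lower in the liver, from -1.16 to -0.48, by 6.57 ± 0.71 (SE, 95.0-fold, limma adjusted p = 7.47e-08). The brain exceeded the heart 436-fold (1.92e-09) and the muscle 336-fold (3.29e-09). The muscle spread widely, since the muscle of KI3 was at 2.68 and the 5 others between -4.49 and -1.75.

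Sult2b1, which sulfates cholesterol and pregnenolone, lay between 0.07 and 1.26 in the brain with a median of 0.61. Its mean was -3.89 ± 1.25 (SD, n = 6) in the muscle, -4.98 ± 0.62 in the liver, where 4 of 6 arrays were above background, and -5.98 ± 0.69 in the heart with 2 of 6. The smallest gap was to the muscle, 4.56 (23.5-fold, limma adjusted p = 1.06e-08). The brain lay 6.65 above the heart (5.57e-11) and 5.64 ± 0.42 (SE) above the liver (2.91e-10).

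Gsto2, an omega-class enzyme that reduces dehydroascorbate, was highest in the heart with a far smaller gap. The hearts lay between -0.31 and 0.33 with a median of -0.11, above the brain by 1.49 ± 0.25 (SE, 2.80-fold, limma adjusted p = 2.84e-05), the muscle 5.49-fold (1.38e-07) and the liver 8.77-fold (1.18e-09). Gsto1 of the same class was highest in the liver, so the 2 omega genes differed in tissue.

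Gstm5, a mu-class gene, averaged 4.92 ± 0.25 (SD, n = 6) in muscles, 4.51 ± 0.26 in brains, 3.99 ± 0.24 in hearts and 2.62 ± 0.22 in livers. The muscle exceeded the brain 1.33-fold (difference 0.41 ± 0.16 SE, limma adjusted p = 0.0243) and the liver 4.93-fold (9.67e-11). With quantile normalization the order of muscle and brain turned, with a muscle minus brain difference of -0.37. The call was also lost without WT2, WT3, KI1 or KI3, with gaps of 0.34 to 0.42. Of the Gstm genes measured, Gstm5 was the 1 with the muscle as its highest tissue, and 5 others were highest in the liver.

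Gstm2, also mu class, was shared between heart and liver, with 5.62 ± 0.18 (SD, n = 6) in hearts, 5.28 ± 0.24 in livers, 4.77 ± 0.35 in muscles and 0.04 ± 0.44 in brains. Its liver minus heart difference was -0.33 ± 0.19 (SE, limma adjusted p = 0.125), and with quantile normalization or the z-score table it was called highest in the heart. The brain lay 37.8-fold below the liver and 47.6-fold below the heart. Gsta4, which removes lipid aldehydes, was at 1.89 ± 0.56 in the liver and 1.80 ± 0.32 in the heart, 0.09 ± 0.20 apart (adjusted p = 0.714). Gstt4 passed on 3 hearts and 1 brain only.

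Sult1e1, the estrogen sulfotransferase, is the member of the chromosome 5 run that was not highest in the liver. It lay between -5.93 and -0.34 in the muscle with a median of -2.46, between -7.32 and -2.17 in the heart with a median of -4.02, and between -5.82 and -2.75 in the liver with a median of -5.09. Each of these 3 tissues had 5 of 6 arrays above background and the brain had none. The muscle was at least 14.8-fold above the brain (limma adjusted p = 4.09e-06) and 4.87-fold above the liver (0.0141). The heart minus muscle difference of -1.61 ± 0.78 (SE) did not pass (0.107), and with normexp background correction the muscle was called highest.

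**Figure D2:**
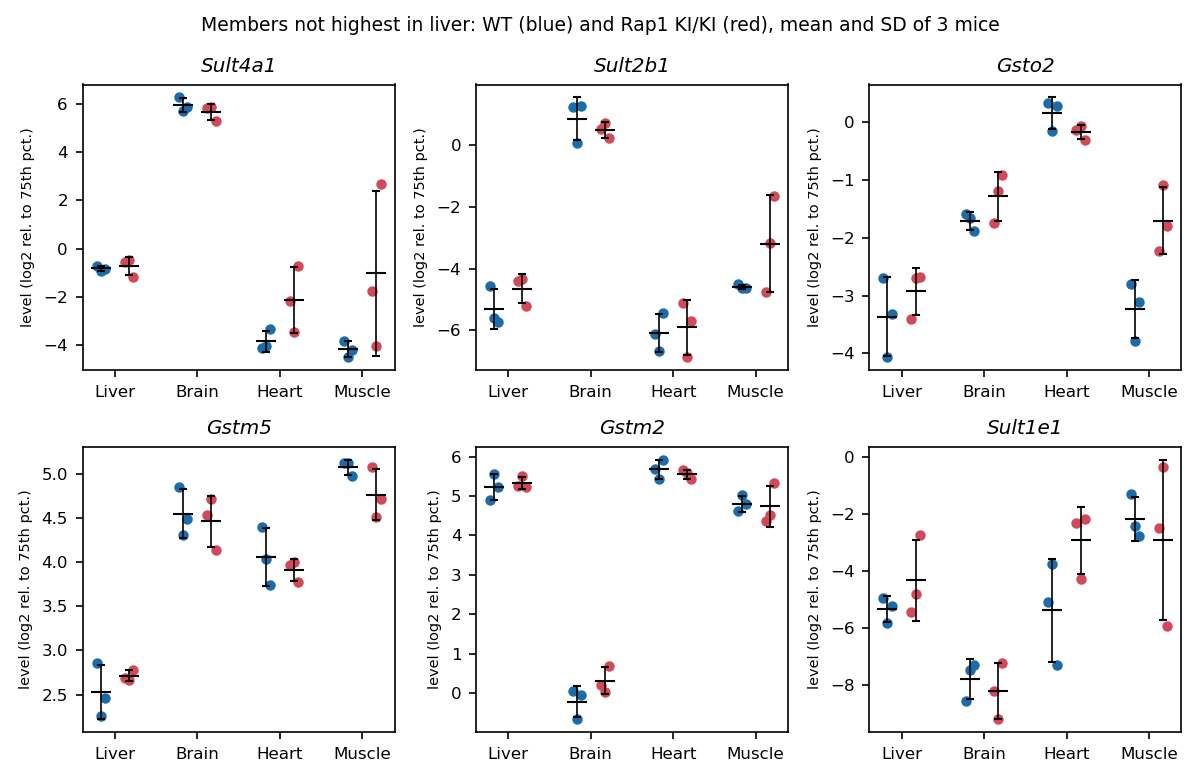
Log2 level relative to the array's 75th percentile of Sult4a1, Sult2b1, Gsto2, Gstm5, Gstm2 and Sult1e1 by tissue and genotype, each point 1 mouse with the mean and SD of 3. Sult4a1 and Sult2b1 are highest in the brain points, Gsto2 in the heart, Gstm2 is as high in heart as in liver within its spread, and Sult1e1 spreads most in heart and muscle.

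The low level of Ugt2b38 outside the liver was set beside a hepatocyte marker. Albumin (Alb), made by hepatocytes, was at 2.67 in the heart of WT2, 1.51 in KI2, 1.14 in KI1, -0.27 in KI3, -0.28 in WT1 and -0.70 in WT3. Ugt2b38, which in the liver lay between 7.50 and 8.45, was at -1.52, -2.29, -3.15, -3.34, -4.25 and -3.42 in the same hearts. The heart of WT2 was highest and that of KI2 second for both genes. Gsta2 did not follow this order, at -0.39 in WT2, -0.32 in KI2, 0.05 in KI1, -2.36 in KI3, 0.89 in WT1 and -0.41 in WT3. In the brain, WT1 had Alb at 0.33 and Ugt2b38 at -4.59, while the other 5 brains lay between -6.24 and -4.06 for Alb and between -7.69 and -5.62 for Ugt2b38.

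The hepatocyte list of 10 genes had all of them above background in every liver, 7 to 10 in the hearts, 5 to 9 in the brains and 6 to 8 in the muscles. Its summed level, in multiples of the 75th percentile, was 2307 to 4401 in livers, 7.23 to 41.8 in hearts, 19.0 to 95.6 in brains and 1.22 to 10.0 in muscles. Ttr, also made by the choroid plexus, makes up nearly all of the brain sum: over the other 9 genes it was 0.187 to 4.25 in brains and 6.97 to 40.5 in hearts. The part of these cells or their RNA in the low levels was not tested. With the muscle of KI3, the heart of WT2 and the brain of WT1 left out together, the number of transferases highest in the liver was again 35.

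Adipocyte markers also varied between mice. In the muscle, Adipoq, the adiponectin gene, was at 6.31 in KI2, 5.37 in WT1, 3.98 in KI3, 3.85 in KI1, 3.66 in WT3 and 1.74 in WT2. Gsta3 was at 1.71, 1.44, 0.26, -0.25, 0.29 and -1.38 in those muscles, and Ugt1a6b, a phenol-conjugating form, at 1.45, 0.26, -0.23, -1.06, -0.52 and -1.15. KI2 and WT1 were the upper pair and WT2 the lowest for all 3 genes. The adipocyte list of 7 genes had 6 or 7 above background in hearts and muscles, with a summed level of 196 to 1262 in muscles and 370.0 to 702 in hearts. Without Lpl and Fabp4, which muscle and heart also express through other cells, the sum over 5 genes was 75.4 to 726 in muscles and 0.898 to 312 in hearts. Its part was not tested.

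**Figure D3:**
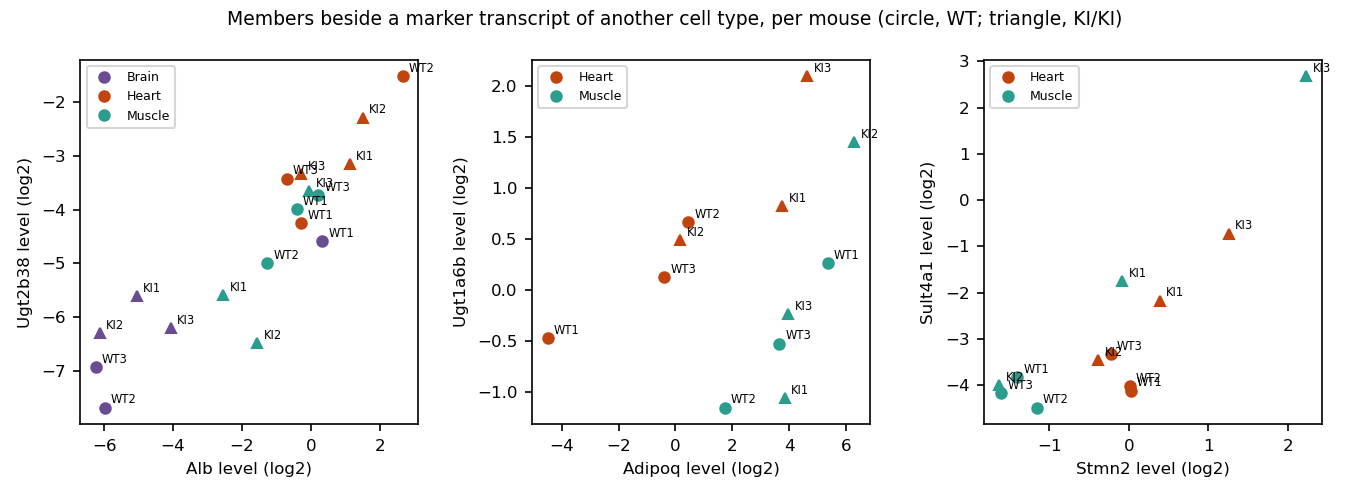
Scatter plots of the log2 level of a transferase (y axis) against a marker of another cell type (x axis), 1 point per array: Ugt2b38 against Alb in brain, heart and muscle, Ugt1a6b against Adipoq in heart and muscle, and Sult4a1 against Stmn2 in heart and muscle. The heart of WT2 (Alb 2.67, Ugt2b38 -1.52) and the muscle of KI3 (Stmn2 2.23, Sult4a1 2.68) lie at the upper right of their panels.

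The genes that feed, regulate and follow conjugation were read from 8 lists of 82 genes, of which 80 were tested. By the same rule 45 were highest in liver (56.2%), 6 in brain, 2 in heart and 12 in muscle, where the shares of all genes were 25.2%, 20%, 8.14% and 10.3%. The other conjugating enzymes were the list with most of its genes in the liver, 10 of 11. Glyat, which joins acyl groups to glycine, was at least 2663-fold higher in liver than heart, and Baat, which joins bile acids to amino acids, at least 1056-fold higher in liver than brain (limma adjusted p = 7.55e-18 and 4.16e-20).

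In the liver were highest 5 of 10 genes of glutathione supply and recycling (Gclm, Gclc, Gss, Gpx1 and Glrx), 5 of 8 of PAPS supply and sulfate recycling (Slc26a1, Papss2, Slc35b3, Bpnt1 and the sulfatase Arsa), and 5 of 7 of UDP-glucuronic acid supply and glucuronide cleavage. The last 5 were Ugdh and Slc35d1, which make and carry the donor, the glucuronidase Gusb, and Ugt3a1 and Ugt3a2. Gclc, the rate-limiting subunit of glutathione synthesis, was at 5.91 in the liver and 1.28 in the heart, a difference of 4.63 ± 0.15 (SE, adjusted p = 2.14e-15). Slc7a11, the cystine importer, ran the other way, with a brain mean of -1.58 and no liver above background, at least 23.3-fold apart (2.71e-14). Slc26a1, a sulfate transporter, was 8.91 ± 0.34 above the muscle in the liver, whereas the sulfate transporter Slc13a4 was 4.74 ± 0.38 above the heart in the brain. Ugt3a2 and Ugt3a1, relatives of the Ugt genes that use other sugars, were at least 3199-fold and 505-fold higher in liver than muscle.

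Of 8 microsomal transferases and related enzymes, Mgst1 and Gstcd were highest in the liver, Mgst2 in the muscle and Alox5ap, a leukotriene synthesis factor, in the heart. Mgst1 was 7.22 ± 0.35 (SE) above the brain in the liver, while Mgst3 had a liver minus heart difference of -6.02 ± 0.53. Of the exporters, 5 of 12 were highest in the liver and 3 in the muscle. Abcc2, the canalicular pump for conjugates, was at least 1717-fold above the brain, and Slco1b2, an uptake carrier, was 13.40 ± 0.47 above it with 5 of 6 brains above background. Of 11 NRF2 targets, 6 were highest in the liver.

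Of the 16 regulators, 9 were highest in the liver and 6 in the muscle. Hnf4a, a hepatocyte factor, was at least 12232-fold higher in liver than brain, where 1 of 6 brain arrays passed and the others were raised to the floor (limma adjusted p = 1.6e-13).

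**Figure D4:**
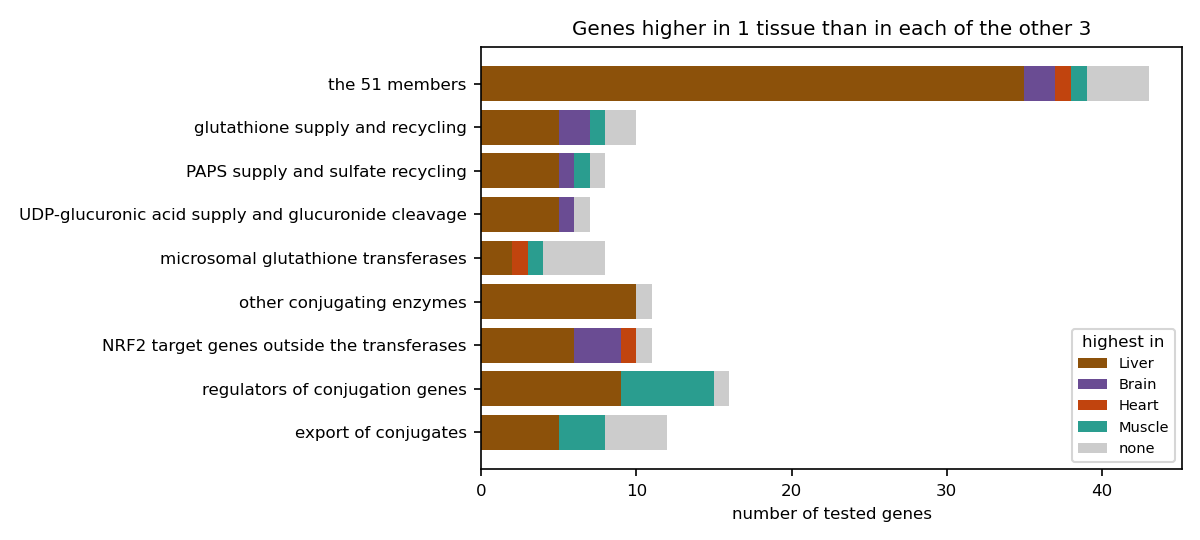
Stacked bars of the number of tested genes highest in each tissue, for the transferases and the 8 lists of related genes. Highest means an adjusted p under 0.05 against each of the other 3 tissues. The transferases hold 35 genes in the liver, namely 16 Gst, 12 Ugt and 7 Sult genes. The regulators hold 9 in the liver and 6 in the muscle.

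No transferase passed the test for genotype in any tissue. KI/KI and WT mice, 3 of each, were compared within the liver (42 genes tested), brain (28), heart (32) and muscle (28), and limma called 0 of them at an adjusted p under 0.05. Over all named genes 0% were called in each tissue. At an unadjusted p under 0.05, limma gave 0, 0, 3 and 1 of the transferases, against 325 of 16059, 462 of 17038, 847 of 16091 and 373 of 15257 named genes. The smallest adjusted p of a transferase was 1.00 in livers and in brains, 0.660 in hearts and 0.950 in muscles. A comparison of 3 against 3 mice cannot reach an exact permutation p below 0.1. On simulated data with the spread of these arrays, this limma test recovered 0% of changes of 1 or of 2 log2 units. It recovered 63% of changes of 3 log2 units. The absence of calls here therefore does not show equal levels.

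The median KI/KI minus WT difference of the tested transferases was -0.08 for livers, 0.11 for brains, -0.09 for hearts and 0.03 for muscles on the log2 scale. Over all genes tested it was 0.00, 0.01, -0.06 and -0.06. Groups that did not overlap were found for 1 liver, 1 brain, 3 heart and 2 muscle genes of the set. Of all named genes, 5.36% did not overlap in livers, 9.04% in brains, 14.5% in hearts and 6.29% in muscles, so these counts are at or below the background except in the muscle, where 2 of 28 is close to it.

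In the liver, Ugt1a6a, which glucuronidates simple phenols, was at -3.81, -3.98 and -3.68 in KI1 to KI3 and at -3.43, -2.70 and -3.63 in WT1 to WT3. All KI/KI livers were lower, by 0.57 ± 0.28 (SE), and the gap between the nearest pair was small. In the brain, Gsta2, an alpha-class peroxidase, was at -4.28, -4.01 and -3.91 in KI1 to KI3 and at -4.79, -4.41 and -4.43 in WT1 to WT3. All KI/KI brains were higher, with a difference of 0.48 ± 0.20. Neither passed the adjusted test (limma adjusted p = 1.00 for both).

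In the heart, Gstp1, the pi-class enzyme known for binding many drugs and carcinogens, was at 4.32, 4.05 and 3.71 in KI1 to KI3 and at 4.68, 4.55 and 4.76 in WT1 to WT3. Its KI/KI minus WT difference was -0.64 ± 0.23 (SE, limma adjusted p = 0.660). Gstm7 was at 0.29, 0.27 and -0.16 against 0.68, 0.49 and 0.36, a difference of -0.38 ± 0.22 (0.689). Both lay lower in every KI/KI heart. Gsta3 lay the other way, at 2.13, 1.93 and 2.70 against 1.70, 1.87 and 1.70, a difference of 0.50 ± 0.26 (0.668). Without the heart of WT1 the 3 differences were -0.63 ± 0.29, -0.29 ± 0.27 and 0.47 ± 0.31. The hearts of KI3 and KI1 were highest for Gsta3 and also for Adipoq, at 4.64 and 3.77 against -4.50 to 0.45 in the others. KI2 lay above WT2 for Gsta3 and below it for Adipoq. The part of adipocytes in the Gsta3 difference was not tested.

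In the muscle, Gsto2 was at -2.24, -1.08 and -1.80 in KI1 to KI3 and at -2.81, -3.79 and -3.11 in WT1 to WT3. The KI/KI minus WT difference was 1.53 ± 0.38 (SE), and limma's adjusted p was 0.950. Gsto2, highest in the heart, had a heart difference of -0.32 ± 0.22 (-0.23 ± 0.27 without the heart of WT1) and a liver difference of 0.44 ± 0.39, and its groups overlapped there. Gstt3 was at 0.77, 0.77 and 0.63 against 0.92, 0.90 and 0.88, a difference of -0.18 ± 0.17 (0.950).

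Several larger differences belonged to genes whose groups overlapped. Sult1e1 in the heart was at -2.33, -4.28 and -2.17 in KI1 to KI3 and at -5.09, -3.76 and -7.32 in WT1 to WT3, a difference of 2.47 ± 0.97 (SE, limma adjusted p = 0.660). Without the heart of WT1 it was 2.61 ± 1.12 (0.944). Adipoq was at 3.77, 0.17 and 4.64 in the KI/KI hearts and at -4.50, 0.45 and -0.39 in the WT hearts, so KI3 and KI1 were highest for both genes and KI2 lay below WT2 for both. Over the adipocyte list without Lpl and Fabp4 the sum was 137, 29.7 and 312 against 0.898, 24.8 and 22.3. Ugt1a6b in the heart was at 0.82, 0.49 and 2.10 against -0.47, 0.67 and 0.13, a difference of 1.03 ± 0.49, and of 0.74 ± 0.51 without the heart of WT1. The part of adipocytes in both was not tested.

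Sult4a1 in the muscle was at -1.75, -4.01 and 2.68 in KI1 to KI3 and at -3.84, -4.49 and -4.17 in WT1 to WT3, with a difference of 3.14 ± 1.50 (SE, limma adjusted p = 0.950). In the heart it was at -2.17, -3.45 and -0.72 against -4.12, -4.03 and -3.33, with a difference of 1.71 ± 0.66 (0.660), or 1.56 ± 0.76 without the heart of WT1. Of 8 neuron markers, KI1 and KI3 had 8 and 7 above background in both heart and muscle, the other hearts 4 to 6 and the other muscles 3 or 4. Their summed level was 18.8 to 50.4 in KI/KI muscles against 20.0 to 24.9 in WT, and Stmn2, a neuron gene, reached 2.23 in the muscle of KI3. The Syt1 spot was missing on that array, so its count and sum leave Syt1 out. Camk2a was not raised there, at 2.65 against 2.64 to 3.32 in the other muscles. In hearts the sum did not follow Sult4a1. It was 29.8, 42.4 and 37.5 in KI1 to KI3 and 29.5, 21.0 and 44.3 in WT1 to WT3. Sult2b1 in the muscle of KI3 was at -1.64, the highest of the 6. The part of nerve tissue in these values was not tested.

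**Figure D5:**
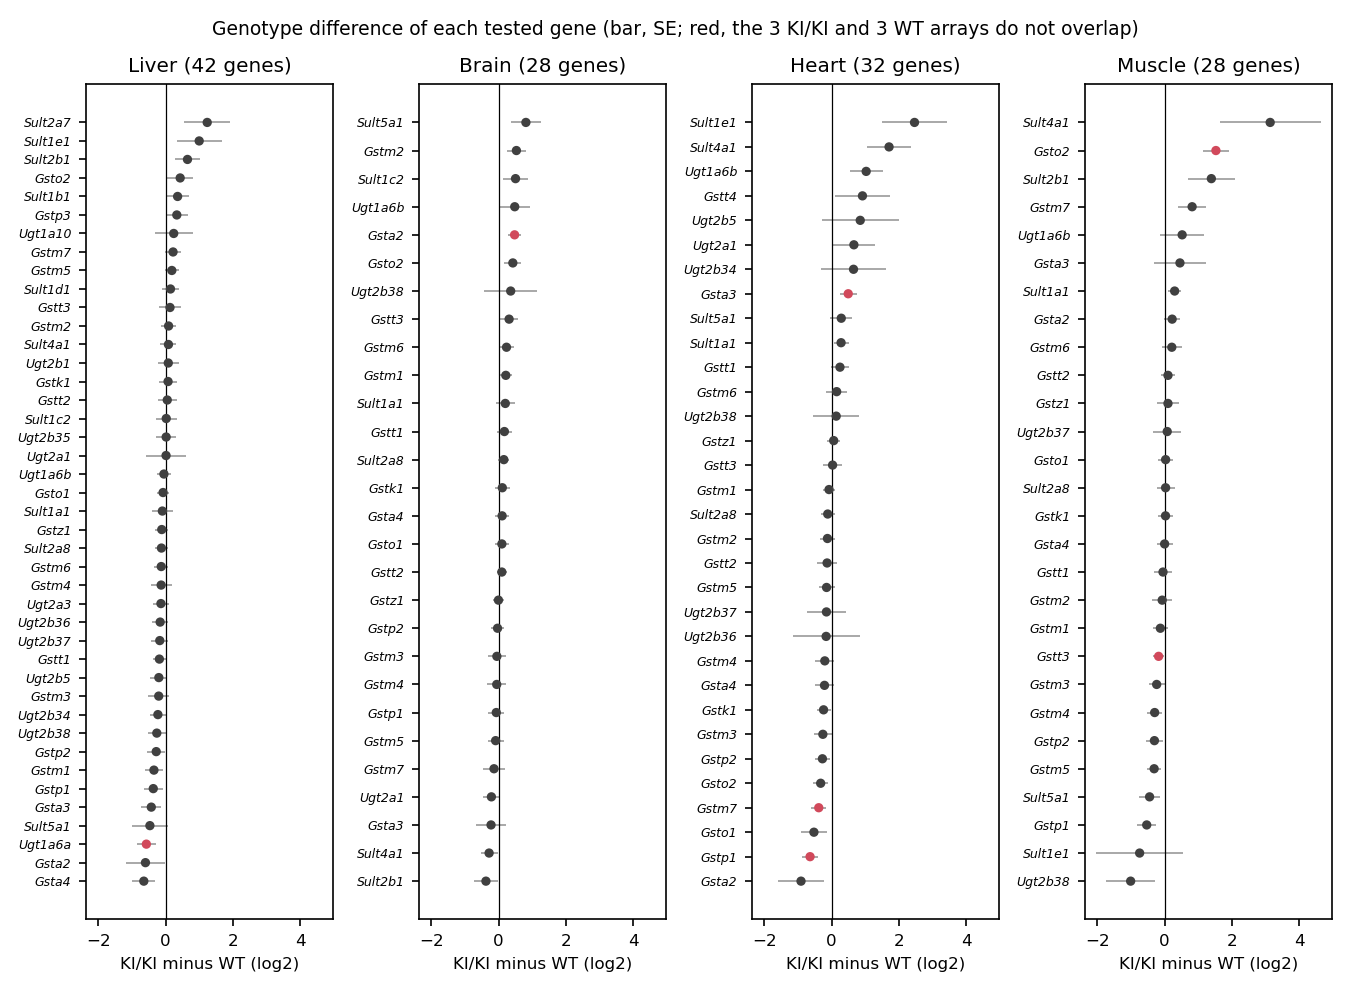
KI/KI minus WT difference on the log2 scale (x axis) with its standard error for each tested transferase in the liver, brain, heart and muscle, 3 mice a genotype; red marks genes whose groups do not overlap. Most points lie within 1 log2 unit of 0, and the largest differences are those of Sult4a1 in the muscle (3.14 ± 1.50) and Sult1e1 in the heart (2.47 ± 0.97).

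Whether the genotype difference varied between tissues was tested as an interaction over the 24 arrays. Limma called 0 of the 43 tested transferases and 0% of 18638 named genes. At an unadjusted p under 0.05 there were 3 of the 43 transferases, Gsto2, Ugt2b35 and Gstp3, against 530 of the named genes (2.84%). Outside the liver, Ugt2b35 and Gstp3 were above background on 0 or 1 of 6 arrays per tissue. Their p-values therefore rest on signals below background and are no support for a difference between tissues. On the 8 lists of related genes, limma called 0 of 76, 73, 70 and 68 genes for genotype in the liver, brain, heart and muscle, with 2, 4, 5 and 2 at an unadjusted p under 0.05.

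The 2 mice of 5 months and the 4 of 2 months were also compared, each age holding both genotypes. Limma called no transferase in any tissue, with 2, 2, 2 and 0 at an unadjusted p under 0.05 in the liver, brain, heart and muscle. Of all named genes 0.00623% were called in the liver and 0% in each other tissue. Ages did not overlap for 8 of 42 transferases in livers, 5 of 28 in brains, 5 of 32 in hearts and 1 of 28 in muscles, against 38.2%, 12.7%, 13.6% and 18.2% of all genes. In the liver the share of transferases was therefore below the background share.

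Ugt1a10 in the liver was at -0.57 and 0.16 in the older WT1 and KI1 and at 1.22, 1.61, 1.06 and 0.67 in WT2, KI2, WT3 and KI3. The 5 minus 2 months difference was -1.34 ± 0.33 (SE, limma adjusted p = 0.218). Sult1a1, the phenol sulfotransferase, was lower in the older livers too, with -0.64 ± 0.23 (0.273), whereas Gsta2 was higher, with 1.12 ± 0.47 (0.305). The 2 older mice lay apart from the 4 younger for all 3, and none passed the adjusted test.

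In the brain, the differences were 1.68 ± 0.52 (SE) for Ugt2b38, 0.50 ± 0.24 for Gstm3 and 0.48 ± 0.24 for Gstt3, all with a limma adjusted p of 0.749. Ugt2b38 was well above background on only 3 of 6 brains, and the younger brains lay between -7.69 and -6.20. Its difference therefore rests in part on signals below background. The 2 older brains share a slide with the livers, and that of WT1 had the raised Alb level given above, so age and slide cannot be told apart there. In the heart, Ugt2b37 was at -5.73 and -5.77 in the older mice and between -4.82 and -3.96 in the younger, a difference of -1.42 ± 0.32 (0.561). Gsta2 was 1.34 ± 0.55 higher (0.692) and Gstm4 0.56 ± 0.24 higher (0.693) in the older hearts. Without the heart of WT1, which leaves KI1 as the 1 older heart, these differences were -1.44, 0.92 and 0.42. They were fitted without genotype, while the age differences above were fitted with genotype as a covariate. Age is not balanced for genotype in that fit, so the 2 sets of values are not strictly alike. For genotype without that heart, limma called 0 of 32 transferases, with 0 at an unadjusted p under 0.05. In the muscle, Sult2a8 differed by 0.50 ± 0.22 (0.786).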

How the data were processed

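The authors deposited intensity values, the processed signals of one-color Agilent arrays from Feature Extraction 12.0.3.1, background-subtracted and detrended but not normalized between arrays. They also deposited score values, which are z-scores within each array of log10 processed signals, recomputed here to within 0.005. No test for the arrays is given in the sources used here. Grid coordinates were not used. Probes were named through RefSeq accessions (GRCm38.p6): 28331 of 55681 probes matched 21368 genes. Controls and outlier-flagged spots were dropped, and replicate spots were averaged per probe.

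Tested probes were well above background on 3 or more arrays (of 24, or of 6 within a tissue); limma 3.58.1 under R 4.3.3 gave two-sided tests with Benjamini-Hochberg adjustment over all probes tested. A bound ("at least") compares the bright group's mean with the higher of the dim probe's signal and the lowest signal among probes well above background, on each array. A mouse number ties the 4 tissues of 1 animal and pairs no WT with a KI/KI mouse. With the mouse as a random block (consensus correlation 0.0169) no call on the transferases changed. The members and lists were chosen with earlier results of these data known. Named were, per family and tissue, up to 3 genes with the largest smallest gap, non-overlapping genes with the smallest p (up to 4 for genotype, 3 for age), and up to 2 genes per list with the largest tissue difference. A regulator that these rules name is not reported here. Genes outside these rules were chosen after their values were seen. The alternatives were quantile normalization, normexp (offset 50, on median foreground signals), the z-scores, other filters and probes per gene, slide, age or mouse as a block, 1 genotype, mice left out, trend and robust eBayes, and a 2-fold limit. Scripts were tested on simulated data. The number of arrays limits the precision.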

Additional observations from a re-analysis of the deposited data

Results flagged for a closer look

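In 3 of 116 sets of 6 arrays (2.59%), 1 array stood apart by more than the Dixon limit of 0.625 of the range, and chance flags about 1 in 20 groups. Ugt1a6b in the brain of KI3 was at 0.38 with the nearest array at -0.69, Gstt1 in the heart of KI3 at 4.53 with the nearest at 3.95, and Gstp2 in the muscle of KI3 at 6.91 with the nearest at 7.57. The gap took a share of the range of 0.625, 0.649 and 0.762. All 3 arrays are of the mouse KI3, whose muscle also held the high Sult4a1 level of the report. The brain of KI3 also had the highest sums of 2 marker lists among the brains. The macrophage sum was 84.2 there against 30.5 to 38.9, and the astrocyte sum 98.6 against 47.2 to 64.6. The part of these cells in the Ugt1a6b value was not tested. Ugt2b37 moved in opposite ways with age in 2 tissues. Its 5 minus 2 months difference was 0.38 in the liver and -1.42 in the heart on the log2 scale, with no overlap of the ages in either, and the difference between the tissues was not tested.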

How the results depend on the processing

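With every alternative tried the number of transferases highest in the liver stayed between 31 and 35 and in the brain at 2 or 3, and the list genes highest in the liver were 36 to 46. Calls for genotype, age and interaction were 0 with limma in all settings, which with so few mice says nothing about stability. The heart held 2 genes in place of 1 with quantile normalization and with the z-score table (Gstm2 added), and 1 to 2 with a mouse left out. The muscle held 0 in place of 1 with quantile normalization, the z-score table, the KI/KI arrays only and the 2-fold limit, 2 with normexp (Sult1e1 added), 2 with the muscle of KI3, the heart of WT2 and the brain of WT1 left out, a setting added after seeing the data (Sult1e1 added), and 0 to 1 with a mouse left out (0 without WT2, WT3 or KI1). The Gstm5 gap in the muscle was -0.37 with quantile normalization, a reversal. Heart minus muscle calls fell from 22 to 13 with the 2-fold limit and to 12 within the shared slide, where fewer arrays were compared. Quantile normalization moved the median liver minus brain difference of all genes from 0.31 to 0.06, and that of the tested transferases from 5.24 to 4.75. With the mouse as a replicate block the calls were 42 for liver minus brain, 36 for brain minus heart and 22 for heart minus muscle, as without it. Within shared slides liver minus brain gave 42 calls and brain minus heart 31. Dim probes, near or below background, limit the sulfotransferases most, since 8 of 18 were not tested.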
